A study of Mus musculus with 54 samples.

Results

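The genes of the proteasome and its partners were followed across mouse myeloid progenitors measured cell by cell. A row of the count table was taken when any of its symbols began with Psma, Psmb, Psmc, Psmd, Psme, Psmf or Psmg followed by a digit, and it was kept when it held at least 100 unique molecular identifiers (UMIs, each standing for 1 captured mRNA molecule). Of 27297 rows, 49 met the name rule and 48 were kept. Psmb11, a core subunit known from the thymus, held 0 UMIs and was not kept. The kept rows comprised 7 alpha-ring genes, 4 non-catalytic and 3 catalytic beta-ring genes, the 3 immunoproteasome genes Psmb8, Psmb9 and Psmb10, 6 ATPase and 11 non-ATPase genes of the regulatory particle, 4 activator genes, 1 inhibitor gene and 7 assembly chaperone genes. The testis-linked alpha subunit Psma8 and Psmc3ip, a recombination factor that carries the prefix without being a subunit, made up the rest. The rows of Psmb5, Psmd7 and Psme4 each joined a further symbol, so their values are uncertain.

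The proteasome degrades proteins tagged with ubiquitin. Its core is a barrel of stacked alpha and beta rings, and the beta subunits Psmb5, Psmb6 and Psmb7 carry the peptide-cutting sites. Immune cells, and other cells exposed to interferon, replace these with Psmb8, Psmb9 and Psmb10 respectively, which changes the peptides that reach MHC class I molecules. The regulatory particle, a base of ATPases (Psmc genes) with a lid and further non-ATPase subunits (Psmd genes), binds and unfolds ubiquitin-tagged proteins, whereas the PA28 activator of Psme1 and Psme2 opens the core without ATP.

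All cells came from bone marrow of C57BL/6 mice, enriched for cKit and sorted as lineage-negative, cKit-positive and Sca1-negative, and were processed by MARS-seq, a plate-based method that counts the 3′ ends of mRNA molecules. Wild-type cells were taken without a further gate (unsorted, 16 amplification pools, 2732 cells kept) or, within the CD34+ FcgR-low fraction, as CD41+ cells (2 pools, 336 cells) or as Flt3+ Csf1r+ cells (6 pools, 1132 cells). A further gate took CD34+ FcgR-low, GFP+ MHCII+ cells of Irf8-GFP reporter mice (6 pools, 1116 cells). Cebpa knockout cells came from Cebpa(flox/flox) Mx1-Cre mice given poly(I:C) (12 pools, 1384 cells), and their control from Cebpa(flox/flox) mice also given poly(I:C) (6 pools, 890 cells). For the labels that give the scheme, 300 µg was injected 3 times, 3 weeks before harvest. By the well table these labels sit on Flt3 Csf1r pools 3 and 4, Cebpe knockout pools 1 and 2 and Cebpe control pools 1 and 2. No Cebpa pool as grouped here carries a label with the scheme. Which of these pools received poly(I:C) is therefore as uncertain as their labels. The label of control plate 26 names Mx1-Cre as well. The Mx1 promoter that drives Cre is itself induced by interferon, and poly(I:C) is an interferon inducer. Cebpe-/- cells (4 pools, 559 cells) were compared with Cebpe+/+ cells (2 pools, 250 cells). Mice were 6 to 8 weeks old, except that the sample labels give 14 weeks and housing in another facility for 10 of the 12 pools of sequencing batch 23, which held all Cebpe pools and 6 of the 18 Cebpa pools. The labels give the same for 2 Flt3 Csf1r pools of batch 20, which they call Cebpa knockout, and give 6 to 8 weeks for the other 2 pools of batch 23, Cebpa knockout pools which they call Flt3 Csf1r cells. The ages of these pools are therefore as uncertain as their labels.

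The pools held 121254 to 852363 UMIs in the 8399 cells kept, and 2 pools shared each of 27 sorting plates. Every group carried 1 mouse identifier, and whether it stands for 1 animal or several was not stated, so the p-values measure the spread between pools, which may be technical, and not between animals. The 2 pools of a plate entered the main fits as separate samples, although they are not independent. Their median chi-square distance per degree of freedom was 1.71, against 3.59 for pools of a group from different plates. For 18 of the 54 pools the sample label and the authors' well table named different groups. These were all 12 pools of batch 23, 4 of the Flt3 Csf1r gate and 2 of the Irf8-GFP gate. Groups follow the well table. The targeted genes matched it for the knockouts. Cebpe held 0 UMIs in all 4 Cebpe knockout pools against 35.9 and 67.2 CPM (UMIs of a gene scaled to a common total of UMIs per pool) in the control. Cebpa lay at 0 to 6.80 CPM in the Cebpa knockout against 73.8 to 152 CPM in its control. Both controls held both genes, with Cebpe at 28.8 to 119 CPM in the Cebpa control and Cebpa at 39.3 and 57.1 CPM in the Cebpe control. The presence of these genes therefore does not tell the 2 controls apart. The gate markers also matched. Flt3 lay at 325 to 499 CPM in the Flt3 Csf1r gate against 4.28 to 53.2 CPM in unsorted cells. In the Irf8-GFP gate Flt3 lay at 436 to 539 CPM, so it does not tell these 2 gates apart. Cd74 does, at 3951 to 6972 CPM in the Irf8-GFP gate against 3.78 to 67.3 CPM in the Flt3 Csf1r gate. Unsorted pools held 8.45 to 148 CPM of Cd74. No Cebpe pool had the same group in both sources. Counts of calls in the pools whose label and table match are given beside each comparison they change.

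The start regions of the catalytic pairs are shown because the results turn on how the immunoproteasome gene of a pair moved against its counterpart. The sequences are RefSeq promoter windows of GRCm38.p6, running from 250 bases before to 50 bases after the annotated start on the gene's strand, and 40 of the 48 kept members matched such a window. Psmb7, the counterpart of Psmb10, is not among them and is named only. Capitals mark a match to TTCNNNGAA (the letters of interferon-gamma activated sites) or TGACNNNGC (the letters of antioxidant response elements), searched on both strands. A further motif, GAAA followed after any 2 bases by GAAA (the core letters of interferon-stimulated response elements), was also searched on both strands and has no match in these windows. Psmb8 and Psmb9 lie on chromosome 17 at chr17:34197945-34198244 on the plus strand and chr17:34187281-34187580 on the minus strand, Psmb10 at chr8:105938343-105938642 on the minus strand, Psmb5 at chr14:54617946-54618245 on the minus strand and Psmb6 at chr11:70525107-70525406 on the plus strand.
Psmb8: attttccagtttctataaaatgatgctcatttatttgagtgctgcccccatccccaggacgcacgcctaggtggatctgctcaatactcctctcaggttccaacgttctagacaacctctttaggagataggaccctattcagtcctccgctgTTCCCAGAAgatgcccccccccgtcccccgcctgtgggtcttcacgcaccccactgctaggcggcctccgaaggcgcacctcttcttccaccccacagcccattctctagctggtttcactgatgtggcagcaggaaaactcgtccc
Psmb9: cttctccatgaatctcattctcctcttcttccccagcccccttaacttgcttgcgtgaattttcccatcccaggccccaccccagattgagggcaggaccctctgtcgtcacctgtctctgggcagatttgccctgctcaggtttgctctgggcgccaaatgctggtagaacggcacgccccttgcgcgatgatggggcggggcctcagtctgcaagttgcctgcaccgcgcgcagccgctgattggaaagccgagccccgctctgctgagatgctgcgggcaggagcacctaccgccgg
Psmb10: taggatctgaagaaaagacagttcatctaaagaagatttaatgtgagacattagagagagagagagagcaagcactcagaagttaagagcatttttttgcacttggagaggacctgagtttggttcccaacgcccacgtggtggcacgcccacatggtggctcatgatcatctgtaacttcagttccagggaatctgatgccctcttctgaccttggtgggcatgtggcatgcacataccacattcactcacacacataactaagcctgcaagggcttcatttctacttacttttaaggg
Psmb5: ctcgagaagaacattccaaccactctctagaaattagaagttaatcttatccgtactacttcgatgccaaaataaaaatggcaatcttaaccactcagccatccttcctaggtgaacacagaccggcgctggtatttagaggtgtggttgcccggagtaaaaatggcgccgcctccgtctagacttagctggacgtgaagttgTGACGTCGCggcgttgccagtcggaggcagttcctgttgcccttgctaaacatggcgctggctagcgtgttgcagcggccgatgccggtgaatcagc
Psmb6: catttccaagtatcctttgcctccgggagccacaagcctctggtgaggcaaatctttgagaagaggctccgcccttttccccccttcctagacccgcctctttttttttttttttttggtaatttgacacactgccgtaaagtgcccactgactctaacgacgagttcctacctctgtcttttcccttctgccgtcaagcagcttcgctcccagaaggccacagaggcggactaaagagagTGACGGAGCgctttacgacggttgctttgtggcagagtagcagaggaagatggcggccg

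The TTCNNNGAA match of Psmb8 began 97 bases before its start, and the TGACNNNGC matches of Psmb5 and Psmb6 began 47 and 9 bases before theirs. Across all 32851 windows, 8.30% held TTCNNNGAA, 12.4% held TGACNNNGC and 3.44% held the GAAA repeat. Among the 43 windows of the members the shares were 6.98%, 14.0% and 11.6%. The 5 members with the GAAA repeat were Psmb3, Psmd4, Psmd9, Psme1 and Psmg4. A match describes letters in the window and not a used site.

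Together the 48 genes gave 315452 UMIs, 1.15% of all UMIs in the kept cells. The highest totals over all wells were those of Psmb8 (22567 UMIs), the alpha-ring gene Psma7 (21393), the beta-ring genes Psmb1 (19357) and Psmb4 (17169), and Psmb6 (15536). The lowest were those of Psma8 (124), the assembly chaperone Psmd10 (240), the alpha-ring gene Psma3 (251), the ATPase Psmc6 (402) and the activator Psme4 (635). The method counts a molecule once by its 3′ end, so no length scaling was applied, and totals of different genes also carry how well each 3′ end was captured. Psma8, at group means of 0.840 to 7.27 CPM, was too low to be tested in any comparison.

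The summed level of the immunoproteasome genes was higher in all 3 gated populations than in unsorted progenitors, while the constitutive core overlapped between them. Summed over Psmb8, Psmb9 and Psmb10, the level was 1124 CPM ± 117 (SD, n = 16 pools) in unsorted cells, 2652 ± 196 (n = 6) in the Flt3 Csf1r gate and 2243 ± 284 (n = 6) in the Irf8-GFP gate. The CD41 pools gave 1787 and 1821 CPM. All 14 pools of the gates lay above the highest unsorted pool at 1340 CPM.

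**Figure D1:**
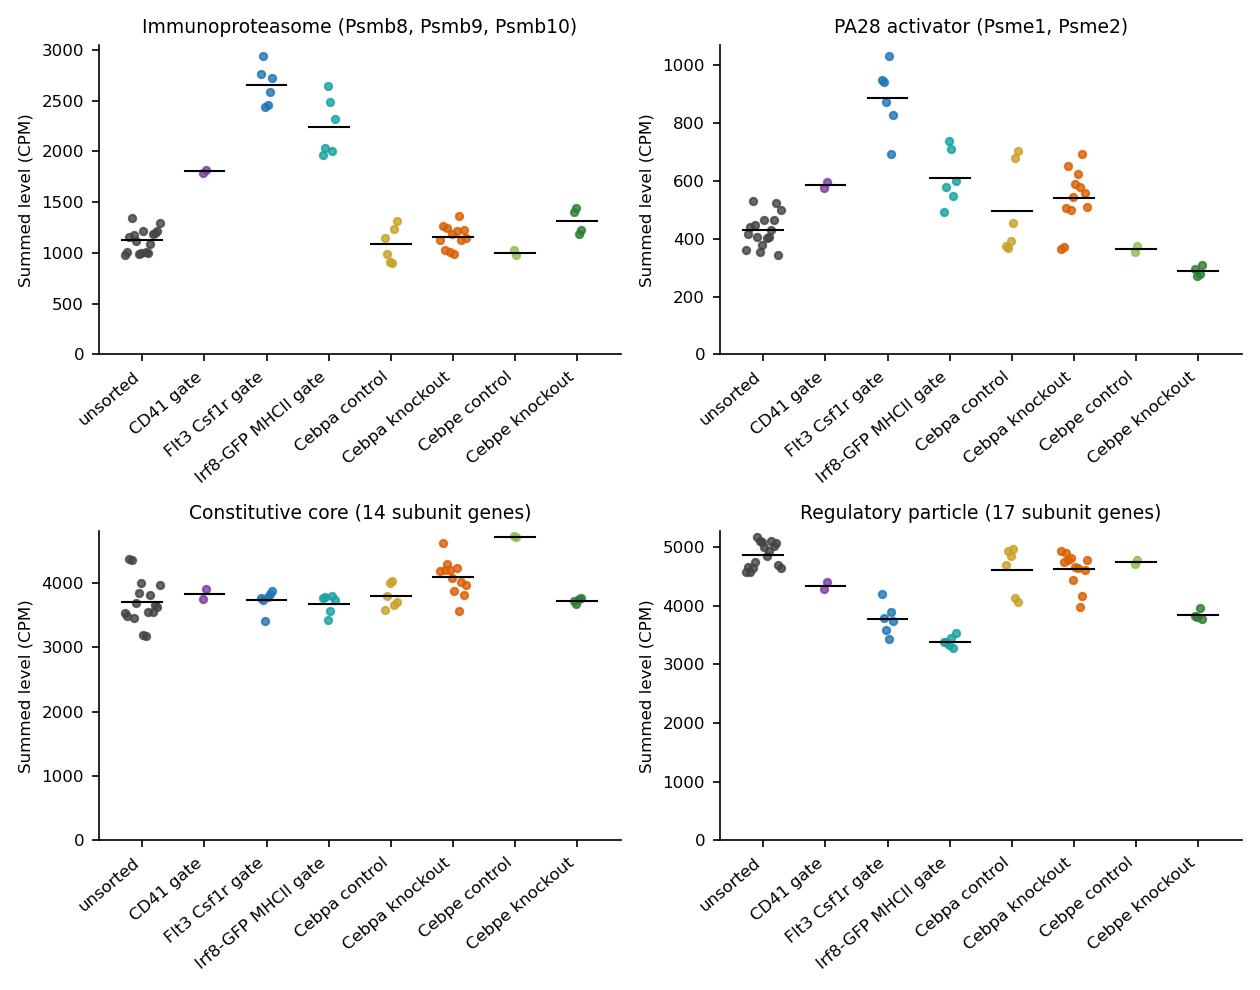
Summed level in CPM (y axis, from 0) of 4 groups of proteasome genes in each amplification pool (points) of the 8 cell groups (x axis), with the group mean as a line. The immunoproteasome panel shows the Flt3 Csf1r and Irf8-GFP gates at means of 2652 and 2243 CPM against 1124 CPM in unsorted cells, whereas the regulatory particle panel shows them lowest, at 3772 and 3389 CPM against 4866 CPM.

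The other groups lay near the unsorted level: 1085 CPM ± 175 (n = 6) in the Cebpa control, 1161 ± 113 (n = 12) in the Cebpa knockout, 985 and 1025 in the Cebpe control pools and 1315 ± 127 (n = 4) in the Cebpe knockout. The constitutive core of 14 genes lay between 3675 and 4084 CPM in the means of 7 groups and at 4715 CPM in the Cebpe control. These levels are sums over all cells of a pool, so more cells of a type and more RNA per cell of that type cannot be told apart in them.

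Psmb8, the immunoproteasome counterpart of Psmb5, ranged in unsorted pools from 519 to 767 CPM with a median of 609. It was at 987 and 985 CPM in the CD41 pools, from 1493 to 1879 CPM (median 1638) in the Flt3 Csf1r gate and from 1160 to 1740 CPM (median 1330) in the Irf8-GFP gate. None of the gate pools overlapped the unsorted range. By edgeR's quasi-likelihood test with Benjamini-Hochberg adjustment over all rows tested, Psmb8 was higher than in unsorted cells by 0.76 (SE 0.15, adjusted p = 0.000119) on the log2 scale in the CD41 gate, 1.51 (SE 0.09, adjusted p = 4.97e-16) in the Flt3 Csf1r gate and 1.15 (SE 0.10, adjusted p = 8.6e-13) in the Irf8-GFP gate. These 3 comparisons share the unsorted pools. The Flt3 Csf1r and Irf8-GFP gates were sequenced in other batches than the unsorted pools, so gate and batch cannot be told apart there.

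Psmb9, the counterpart of Psmb6, behaved alike in direction. Unsorted pools ranged from 159 to 281 CPM (median 216), the CD41 pools were at 363 and 371 CPM, the Flt3 Csf1r pools ranged from 451 to 579 (median 529) and the Irf8-GFP pools from 509 to 604 (median 540). Every gate pool lay above every unsorted pool. The log2 ratios to unsorted cells were 0.85 (SE 0.15, adjusted p = 2.32e-05), 1.37 (SE 0.09, adjusted p = 3.37e-15) and 1.33 (SE 0.09, adjusted p = 3.61e-15) in the same order.

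Psmb10, the counterpart of Psmb7, set the Irf8-GFP gate apart from the other gates. Unsorted pools ranged from 243 to 355 CPM (median 287), the CD41 pools were at 437 and 464 CPM, and the Flt3 Csf1r pools ranged from 387 to 561 CPM (median 468), both above all unsorted pools. The Irf8-GFP pools ranged from 257 to 388 CPM (median 316) and overlapped the unsorted ones. The log2 ratio to unsorted cells was 0.75 (SE 0.15, adjusted p = 0.000132) in the CD41 gate and 0.81 (SE 0.10, adjusted p = 5.04e-09) in the Flt3 Csf1r gate. In the Irf8-GFP gate it was 0.14 and did not pass (adjusted p = 0.219). The difference between the Irf8-GFP and Flt3 Csf1r gates, tested directly, was -0.67 (SE 0.12, adjusted p = 4.87e-05), and within sequencing batch 25, the batch that holds both gates, it was -0.69 (adjusted p = 0.0156). In that batch the Flt3 Csf1r gate is pools 5 and 6 only, both of plate 18, whose label and table differ.

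Between these gates Psmb9 differed by -0.04 and did not pass. Psmb8 was lower in the Irf8-GFP gate by a log2 ratio of -0.36 (SE 0.12, adjusted p = 0.0162), a call that was lost within batch 25 (-0.35, adjusted p = 0.128) and in the matching pools alone (-0.41, adjusted p = 0.117). In the matching pools alone the calls of Psmb8 and Psmb9 against unsorted cells held in all 3 gates. The CD41 gate shares batch 17 with 4 unsorted pools, and within it Psmb8, Psmb9 and Psmb10 were higher by 0.73, 1.02 and 0.62, each past the threshold (adjusted p = 0.00389, 0.00112 and 0.00749).

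Set against its own counterpart, the share of Psmb9 separated more groups than that of Psmb8. Psmb9 gave 27.5% ± 3.67 (SD, n = 16) of the Psmb9 plus Psmb6 UMIs in unsorted pools, 45.8% ± 2.48 (n = 6) in the Flt3 Csf1r gate and 54.3% ± 0.797 (n = 6) in the Irf8-GFP gate. The Irf8-GFP pools, from 53.2% to 55.3%, all lay above the Flt3 Csf1r pools, from 41.5% to 48.8%, and these above the unsorted pools, whose highest was 36.8%. Between these gates Psmb9 itself did not pass. Psmb6 was lower than in unsorted cells in the Irf8-GFP gate and higher in the Flt3 Csf1r gate (values follow). The CD41 pools, at 35.5% and 33.4%, lay within the unsorted range. In the Cebpa knockout the share was 36.5% ± 2.71 (32.1% to 41.7%, n = 12), and in its control 25.9% ± 4.25 (18.7% to 30.3%, n = 6), without overlap. In the Cebpe knockout it was 43.3% ± 3.36 (n = 4) and in its control 32.1% ± 0.763 (n = 2).

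Psmb8 gave 74.2% ± 4.07 of the Psmb8 plus Psmb5 UMIs in unsorted pools and 73.4% in the CD41 gate, where Psmb8 and Psmb5 were both called higher. The share was 84.4% ± 2.28 in the Flt3 Csf1r gate, 87.1% ± 1.63 in the Irf8-GFP gate, 62.0% ± 6.89 and 64.9% ± 7.62 in the Cebpa control and knockout, and 71.1% ± 3.56 and 80.3% ± 2.56 in the Cebpe control and knockout. A share of Psmb10 with Psmb7 is not read here, because Psmb7 varied with the plate (its plate values follow).

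**Figure D2:**
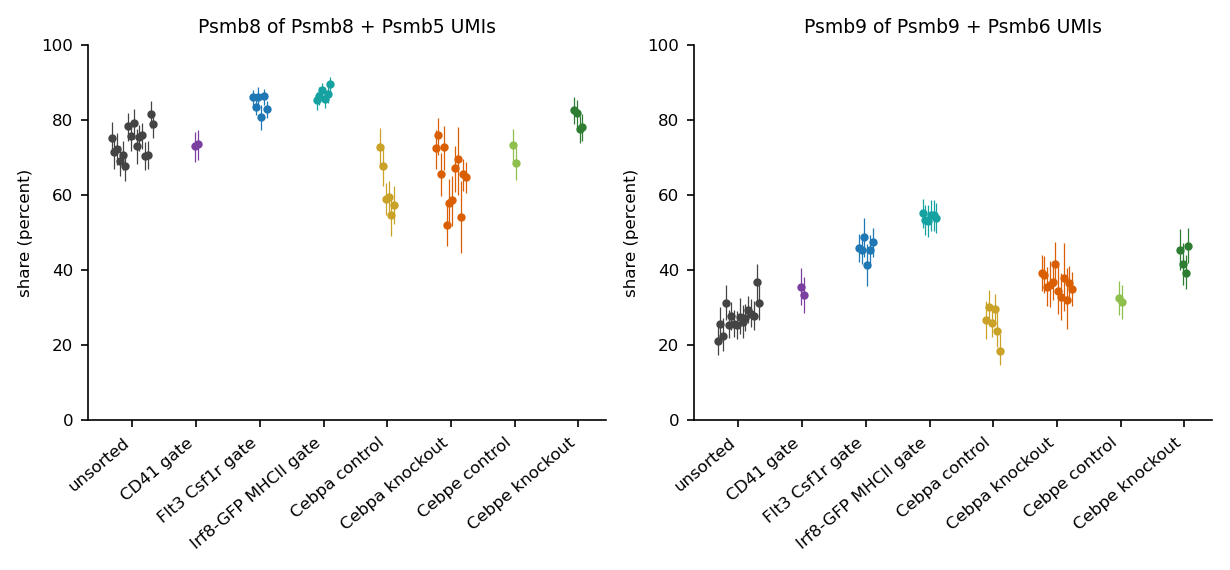
Share in percent (y axis) of Psmb8 among Psmb8 plus Psmb5 UMIs (left) and of Psmb9 among Psmb9 plus Psmb6 UMIs (right) in each pool of the 8 groups (x axis), with exact 95% binomial intervals, for counting error only, as bars. On the right the Irf8-GFP pools lie between 53.2% and 55.3%, above all other pools, and the Cebpa knockout pools lie above all pools of their control.

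The constitutive catalytic genes moved less and not together. Psmb5 was at 352 and 363 CPM in the CD41 pools against 142 to 329 CPM (median 203) in unsorted pools, a log2 ratio of 0.80 (SE 0.23, adjusted p = 0.00604), and was also higher in the Flt3 Csf1r gate (0.58, adjusted p = 0.00149). Psmb6 was higher in the CD41 gate (0.38, adjusted p = 0.0133) and the Flt3 Csf1r gate (0.22, adjusted p = 0.0210) and lower in the Irf8-GFP gate (-0.31, adjusted p = 0.00160). In neither knockout did Psmb5 or Psmb6 pass.

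The PA28 genes rose with the immunoproteasome in the Flt3 Csf1r gate. Psme1 ranged from 416 to 665 CPM (median 608) there against 219 to 313 CPM (median 269) in unsorted pools, with no overlap, and its log2 ratio was 1.20 (SE 0.10, adjusted p = 1.14e-12). Psme2 ranged from 269 to 364 CPM against 124 to 226 CPM, again with no overlap (1.02, SE 0.13, adjusted p = 3.58e-08). Both were higher in the Irf8-GFP gate by less (Psme1 0.61, adjusted p = 3.88e-06, Psme2 0.31, adjusted p = 0.0449), and both were lower in it than in the Flt3 Csf1r gate (-0.59 and -0.70). In the CD41 gate Psme1 passed (0.72, adjusted p = 0.000462) and Psme2 did not (0.18, adjusted p = 0.546). Of the remaining activators, Psme3, a nuclear activator, was lower in the Irf8-GFP gate (-0.74), and Psme4, at 25.3 CPM ± 13.2 in unsorted pools, was lower in the CD41 and Flt3 Csf1r gates.

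The regulatory particle was lowest in the Irf8-GFP gate. Its 17 genes summed to 3277 to 3528 CPM (median 3376) there, 3435 to 4196 CPM (median 3758) in the Flt3 Csf1r gate and 4580 to 5169 CPM (median 4889) in unsorted pools. Neither gate overlapped the unsorted pools. On the normalised scale (TMM) the summed log2 difference to unsorted cells was -0.53 in the Irf8-GFP gate and -0.28 in the Flt3 Csf1r gate, with a pooled SD over pools of 0.06 and 0.08.

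In the Irf8-GFP gate against unsorted cells, edgeR called 8 of 47 members higher and 21 lower, while over all 8720 rows tested it called 28.3% higher and 27.8% lower. The share of members called lower thus exceeded that of all rows and the share called higher did not reach it. Of the regulatory particle, 5 of 6 ATPase genes and 7 of 11 non-ATPase genes were lower and none was higher, with a median log2 ratio over the 17 of -0.58 against 0.00 over all rows. Psmd7, a lid subunit, ranged from 243 to 317 CPM (median 299) against 416 to 670 CPM (median 553) in unsorted pools and did not overlap (-0.91, SE 0.09, adjusted p = 5.37e-11). Psmc2, an ATPase of the base, ranged from 173 to 284 CPM (median 200) against 304 to 433 CPM (median 374), also without overlap (-0.86, SE 0.10, adjusted p = 3.43e-09).

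Psmd4, a ubiquitin receptor, was at 217 to 273 CPM (median 228) in the Irf8-GFP gate against 307 to 485 CPM (median 411) in unsorted pools, and the ranges did not overlap (-0.78, SE 0.09, adjusted p = 3.16e-09). Further lower members were Psmd3 (-0.82), the base scaffold Psmd1 (-0.77), the ATPases Psmc5 (-0.70) and Psmc3 (-0.65), the inhibitor Psmf1 (-0.79) and 5 of 7 assembly chaperones, among them Psmd9 (-1.02) and Psmg3 (-0.90). The higher members outside the immunoproteasome and PA28 were the alpha-ring genes Psma2 (1.80) and Psma5 (0.74) and the beta-ring genes Psmb3 (0.56) and Psmb2 (0.29). Psma2 and Psma5 varied with the plate.

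**Figure D3:**
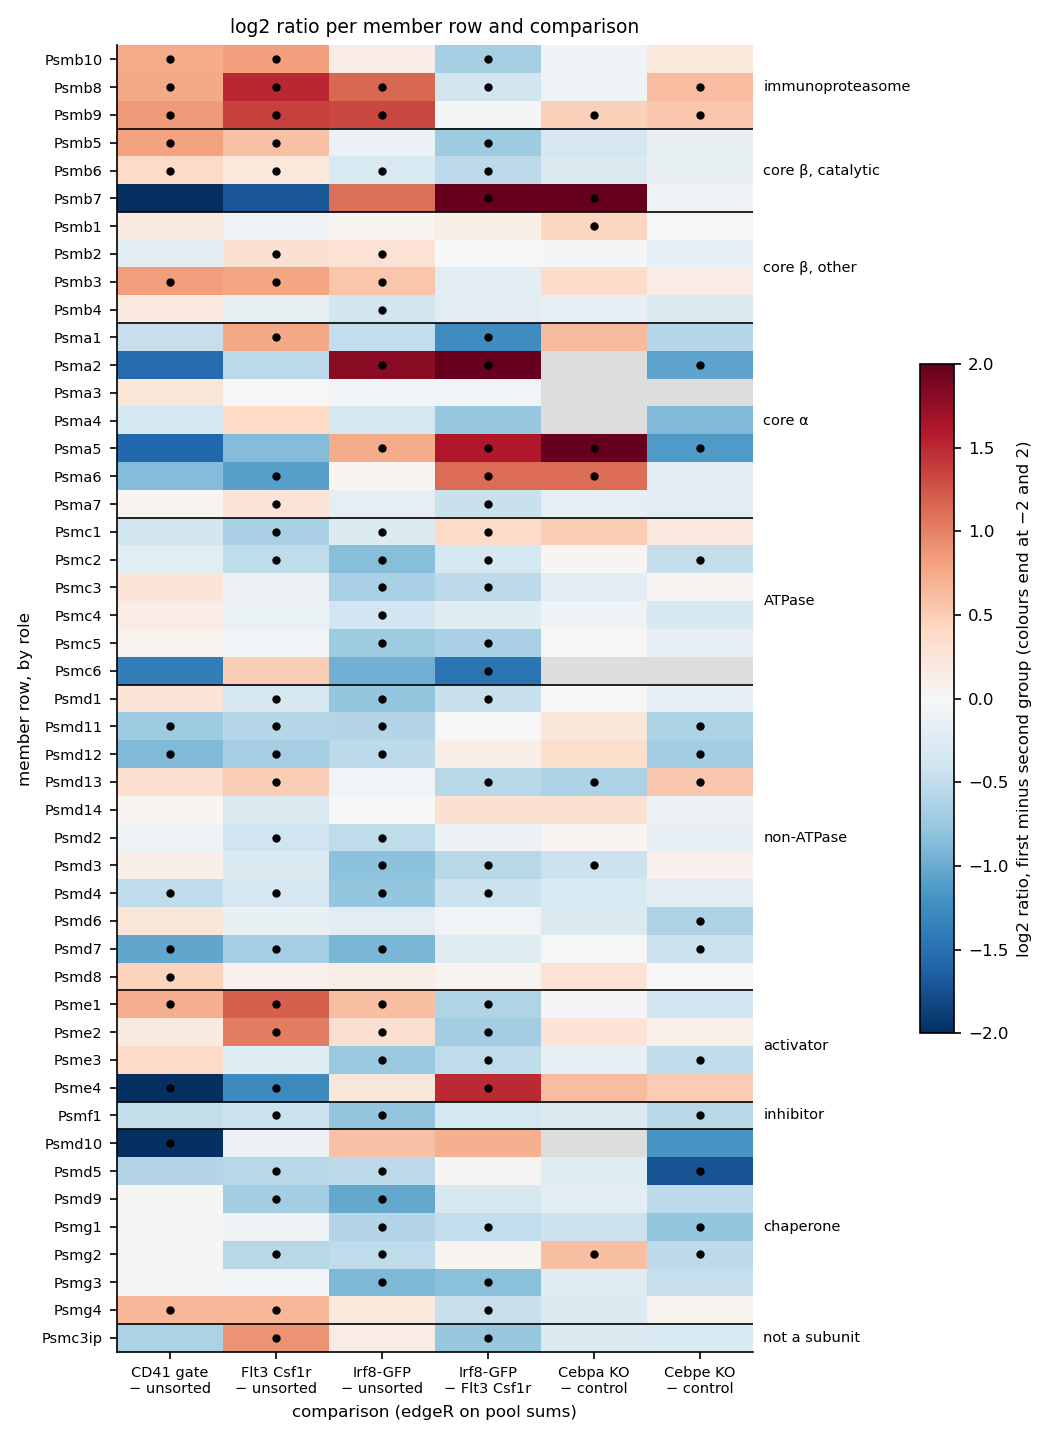
log2 ratio (colour, ending at -2 and 2) of each tested member (y axis, by role) in the 6 comparisons (x axis), a black dot marking an adjusted p under 0.05 by edgeR and grey a member not tested in that comparison; Psmd10 in the CD41 column rests on 0 UMIs in that gate. Psmb8 and Psmb9 are red in the 3 gates against unsorted cells, and most regulatory particle genes are blue in the Irf8-GFP column.

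In the Flt3 Csf1r gate 14 of 47 members were higher and 14 lower, against 25.8% and 27.5% of all rows, shares close to those of the members. Scaled by library totals alone, 12 were higher and 20 lower, against 22.4% and 31.7% of all rows. In the matching pools alone, 10 were higher and 8 lower, against 19.9% and 20% of all rows. After Psmb8, Psmb9, Psme1 and Psme2, the largest rises were those of Psmc3ip (0.90), Psmb10 and Psmb3 (0.78), the alpha-ring gene Psma1 (0.76) and the core chaperone Psmg4 (0.67). The largest falls were those of Psme4 (-1.27), Psma6 (-1.09), Psmd9 (-0.69), Psmd7 (-0.67), the lid subunit Psmd12 (-0.66) and the ATPase Psmc1 (-0.65). Of 6 ATPase genes 2 were lower, and of 11 non-ATPase genes 6 were lower and Psmd13 was higher (0.49).

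In the CD41 gate 9 of 47 members were higher and 6 lower, against 18% and 22.5% of all rows. Beside the immunoproteasome these were Psmb3 (0.84), Psmb5, Psme1, Psmg4 (0.67), Psmd8 (0.45) and Psmb6, and on the lower side Psmd4 (-0.50), Psmd11 (-0.71), Psmd12 (-0.88), Psmd7 (-1.05), Psme4 (-2.47) and Psmd10. Psmd10 held 0 UMIs in both CD41 pools and 85 UMIs over the 16 unsorted pools, so no fold is given. With plates as the unit, which leaves the CD41 gate 1 sample assumed to vary like the other groups, 7 were higher and 1 lower, against 14.4% and 14.2% of all rows. Without CD41 pool 1 the counts were 6 and 1, against 11.5% and 12.1%, and without CD41 pool 2 they were 5 and 2, against 10.9% and 9.95%.

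Between the 2 gates with the highest immunoproteasome levels, 6 of 47 members were higher and 21 lower in the Irf8-GFP gate, against 19.7% and 17.7% of all rows. The lower ones included Psmc6 (-1.46), Psma1 (-1.25), Psmg3 (-0.84), Psmb5 (-0.70), Psme2, Psmb10, Psmc5 (-0.65) and Psme1. The higher ones were Psmb7 (2.81), Psma2 (2.33), Psma5 (1.61), Psme4 (1.49), Psma6 (1.12) and Psmc1 (0.38). With sequencing batch as a term the values of Psmc6 and Psma1 turned to 0.70 and 0.17. In the matching pools alone 3 members were higher and 13 lower, against 10.7% and 10.3% of all rows, and with library totals alone 6 and 17, against 23.4% and 13.1%. With plates as the unit the counts were 1 and 14, against 10.8% and 10.4%.

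Without Cebpa, a transcription factor needed for the granulocyte and monocyte lineages, the members were called at about the rate of all rows. Of 42 tested, 6 were higher and 2 lower, against 9.59% and 8.58% of all 5977 rows. Psmb9 ranged from 282 to 415 CPM (median 330) in the 12 knockout pools and from 194 to 274 CPM (median 224) in the 6 control pools, without overlap (log2 ratio 0.47, SE 0.12, adjusted p = 0.00568). Psmb8 did not pass, at 403 to 652 CPM (median 534) against 435 to 726 CPM (median 530) (-0.10, adjusted p = 0.652), nor did Psmb10 (-0.07, adjusted p = 0.764).

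The ratio of Psmb9 was 0.46 within batch 23 and 0.47 within batch 29, and neither passed alone (adjusted p = 0.100 and 0.0669). The pools of batch 29 are also those whose label and table match. With plates as the unit, 6 against 3, the ratio was 0.42 (adjusted p = 0.139). The other members called were Psmb7 (3.16), Psma5 (1.98), Psma6 (1.11), the core chaperone Psmg2 (0.60) and Psmb1 (0.43) on the higher side, and Psmd13 (-0.63) and Psmd3 (-0.43) on the lower side. In the matching pools alone 1 member was higher and 2 lower, against 3.14% and 5.57% of all rows. With plates as the unit only Psma5 was called, against 2.71% and 3.32%. Without control plate 14, 26 or 27 the members called lower numbered 4, 7 and 0. With library totals alone the counts were 6 and 1. The shares of all rows called in these refits are not given here, so a change in all calls cannot be told apart.

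An edgeR test of whether the Cebpa effect differed between batches called 1 of 6993 rows (0.0143%) and 0 of 43 members, 6 of them at an unadjusted p under 0.05. DESeq2 was not run on it. The largest gap was that of Psmb7, with a log2 ratio of 4.75 in batch 23 and 0.57 in batch 29 (adjusted p of the difference 0.106). For Psmb9 the values were 0.44 and 0.46.

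The loss of Cebpe, a factor needed late in granulocyte maturation, went with higher Psmb8 and Psmb9 and lower levels of other members. Of 45 tested, 3 were higher and 12 lower, against 13.5% and 9.85% of all 7369 rows. Psmb8 was at 802, 825, 640 and 663 CPM in the knockout pools and at 501 and 540 CPM in the control pools, without overlap (0.61, SE 0.15, adjusted p = 0.00248). Psmb9 was at 338, 298, 290 and 329 CPM against 235 and 232 CPM, also without overlap (0.55, SE 0.15, adjusted p = 0.00921). Psmb10 did not pass (0.22, adjusted p = 0.389), and its pools overlapped.

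The largest fall was that of Psmd5, a chaperone of the regulatory particle base, at 22.7 to 27.0 CPM in the 4 knockout pools against 78.6 and 95.8 CPM in the control pools (-1.72, SE 0.28, adjusted p = 3.78e-05). Then came Psma5 (-1.13), Psma2 (-1.06), Psmg1 (-0.78), Psmd12 (-0.69), Psmd11 (-0.63), Psmd6 (-0.61), Psmf1 (-0.56), Psmg2 (-0.53) and Psme3 (-0.52). The remaining member on the higher side was Psmd13 (0.54). The summed constitutive core and regulatory particle differed by -0.21 and -0.17, without overlap of the pools. The control is 1 plate of 2 pools. Without its first pool 0 members were called higher and 6 lower (9.41% and 5.63% of all rows), without its second pool 1 higher and 4 lower (7.43% and 4.18%), and without knockout pool 4 the lower ones numbered 7. DESeq2 called 2 higher and 4 lower, and edgeR with library totals alone 2 and 18, the latter against 11% and 14.5% of all rows. No share of all rows is given here for DESeq2 or for the fit without knockout pool 4. Grouped by the sample labels instead, Psmb8 was at -0.35 and Psmb9 at -0.066. With plates as the unit 1 was higher and 5 lower, against 9.62% and 5.41% of all rows, the higher one being Psmb8 (adjusted p = 0.0381).

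Some members differed between plates of the same group far more than between the 2 pools of a plate. Psmb7, the trypsin-like site of the core, stood in unsorted cells at 7.20 to 13.5 CPM on plates 2, 4, 6 and 8 and at 71.0 to 154 CPM on plates 3, 5, 7 and 9, while its 2 pools of a plate differed by a median of 0.36 on the log2 scale. It was at 15.8 CPM on Irf8-GFP plate 20 and at 189 and 186 CPM on plates 19 and 21. In the Cebpa knockout it was at 259 and 141 CPM on plates 12 and 17 and at 4.09 to 39.8 CPM on the other 4 plates, and in the Cebpa control at 1.67 to 13.4 CPM.

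With 5 CPM added to both, the highest unsorted plate exceeded the lowest 13.0-fold for Psmb7, 8.29-fold for Psma2 and 5.90-fold for Psma5. The ratio was 3.43 for Psma6 (68.9 to 248 CPM), and among rarer members 4.05 for Psmd10 (1.03 to 19.4 CPM), 3.43 for Psmc6 (5.07 to 29.6 CPM) and 3.30 for Psme4 (10.7 to 46.7 CPM). Psmb7, Psma2 and Psma5 were the 3 over 4-fold among the 41 members with at least 1000 UMIs, and their median ratio was 1.46. Of all 4973 rows of that depth, 110 (2.21%) exceeded 4-fold, and the median ratio was 1.56. The rows whose level followed Psmb7 most closely over the 54 pools, chosen after their values were seen, were Cox7b (Spearman rho 0.94), Mrpl42 (0.92), Dbi (0.92) and 1810006K21Rik (0.91), from pools that share plates and depth. The part of such plate differences in the ratios of Psmb7, Psma2, Psma5, Psma6, Psmc6, Psme4 and Psmd10 between groups was not tested.

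**Figure D4:**
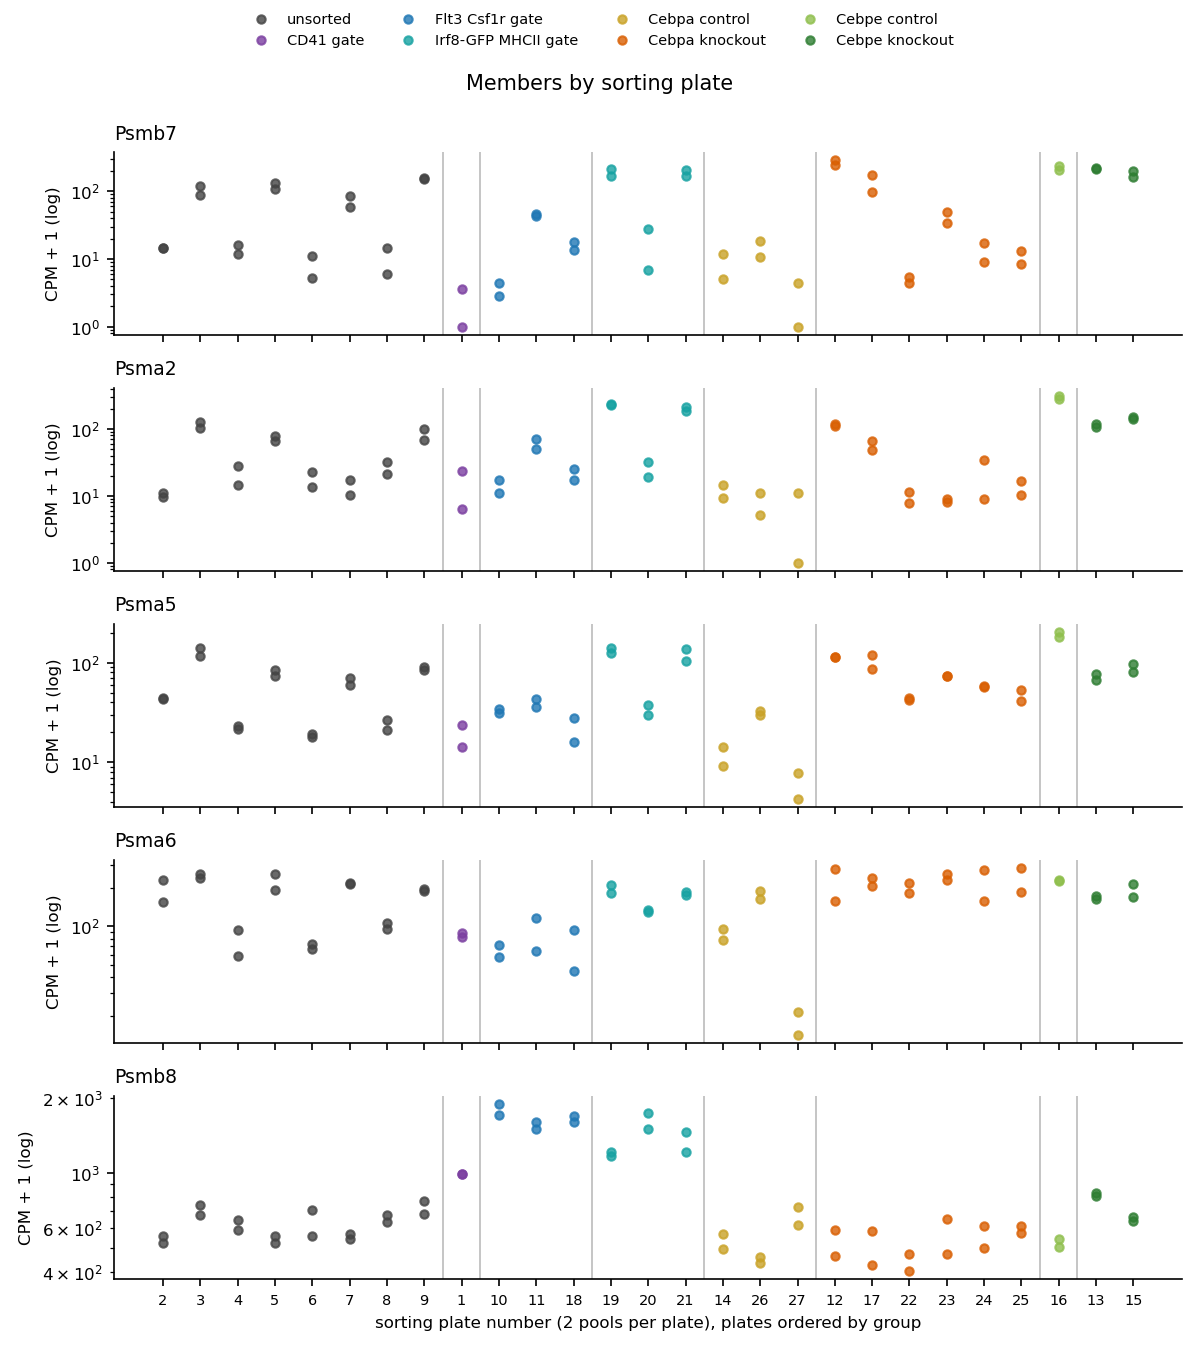
Level (CPM + 1, log axis) of Psmb7, Psma2, Psma5, Psma6 and, for comparison, Psmb8 in each pool (points, 2 per plate), with the 27 sorting plates (x axis) ordered by group. The unsorted plates of Psmb7 fall between 7.20 and 154 CPM, with the 2 pools of a plate close together, while Psmb8 steps up with the Flt3 Csf1r and Irf8-GFP gates.

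Within unsorted progenitors the immunoproteasome differed by cell class. The 2732 unsorted cells were clustered without the member rows, and clusters were called after fixed markers. Monocyte-like cells (531) held 1964 CPM of the summed immunoproteasome, with pools from 1757 to 2325, stem or multipotent-like cells (301) held 2201 CPM, with pools from 1793 to 2751, and neutrophil-like cells (351) held 1462 CPM, with pools from 1079 to 1714. Erythroid-like cells (895) held 543 CPM, with pools from 408 to 709. The erythroid-like pools lay below all pools of the other 3 classes. Dendritic-like cells held the most, 3264 CPM, but from 30 cells and 149 UMIs.

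Per gene, Psmb8 was at 211 CPM in erythroid-like cells, 1219 CPM in monocyte-like cells and 1329 CPM in stem or multipotent-like cells. Psmb9 was at 137, 309 and 400 CPM, and Psmb10 at 195, 436 and 472 CPM, in the same order. The 3 genes thus had the same order over these classes. The regulatory particle was instead highest in erythroid-like cells, at 5552 CPM, with pools from 5018 to 5874. It was at 4399 CPM in monocyte-like, 4132 CPM in stem or multipotent-like and 3897 CPM in neutrophil-like cells. The order of these other classes was not the reverse of that of the immunoproteasome, as neutrophil-like cells were below monocyte-like cells in both. Psmd7 was at 657 CPM in erythroid-like, 412 CPM in monocyte-like and 416 CPM in neutrophil-like cells. Median UMIs per cell differed too, from 4579 to 5734 in the erythroid-like clusters and from 2773 to 3327 in the monocyte-like ones, and the part of depth was not tested.

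**Figure D5:**
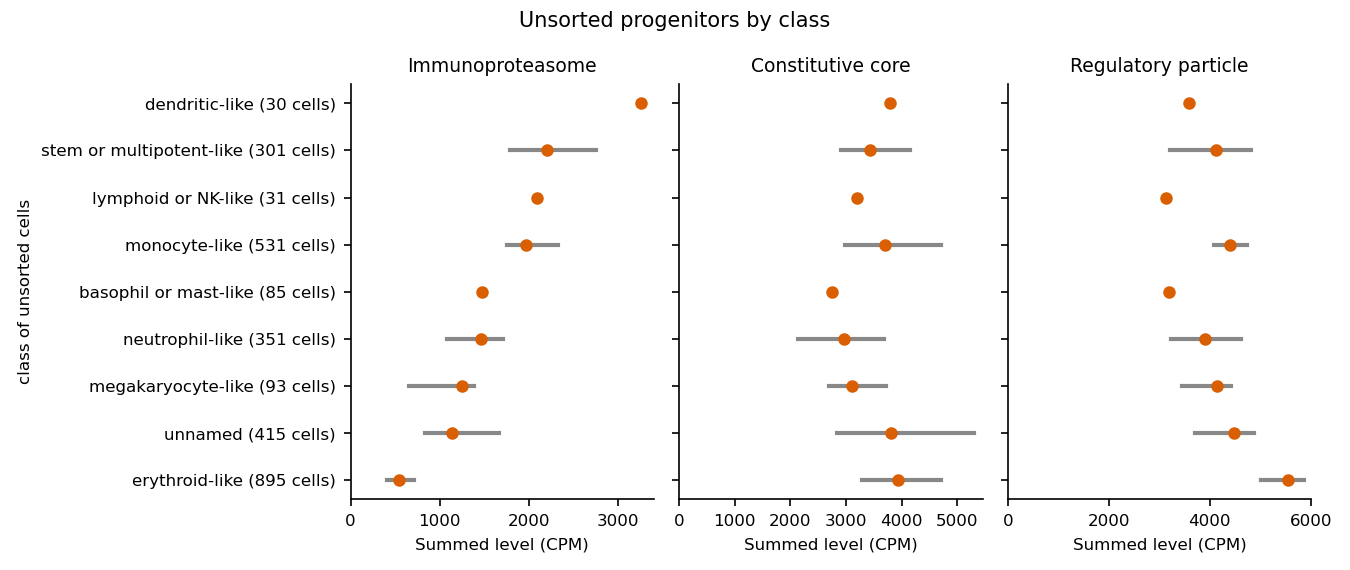
Summed level in CPM (x axis) of the immunoproteasome, the constitutive core and the regulatory particle in the classes of unsorted cells (y axis, cell number in brackets), as the level over all cells (points) and the range over pools with at least 10 cells of the class (lines, where at least 2 pools). Erythroid-like cells are lowest for the immunoproteasome, at 543 CPM, and highest for the regulatory particle, at 5552 CPM.

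The groups differ in these classes. Cells of the other groups were given the class of the nearest cluster (which returned the clustered class for 93.7% of the unsorted cells), and the sort itself sets the shares in the gates. Erythroid-like cells were 32.8% of the unsorted cells, 0.595% of the CD41 gate and 0 cells in the Flt3 Csf1r and Irf8-GFP gates, which allows shares of up to 0.265% and 0.269%. Such limits, here and below, are 3 cells over the cells kept. They cover the sampling of cells only, not wrong class calls or spread between animals. They were 45.2% of the Cebpa control, 37.0% of the Cebpa knockout, 27.2% of the Cebpe control and 8.77% of the Cebpe knockout, in which neutrophil-like cells were 49.9% against 14.8% in the control. In the Cebpa knockout 0 neutrophil-like cells, which allows up to 0.217%, and 2 monocyte-like cells were found. Cells of unnamed clusters were 37.8% of the Cebpa knockout against 9.10% of its control, and megakaryocyte-like cells 15.6% against 5.51%. How much of the pool differences above these shares account for was not tested as a whole, and values within a class follow.

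Within stem or multipotent-like cells the immunoproteasome was at 2459 to 3146 CPM in the pools of the Flt3 Csf1r gate, 1776 to 2378 CPM in the Irf8-GFP gate and 1793 to 2751 CPM in unsorted pools, and the ranges of the 2 gates did not overlap each other, whereas both overlapped the unsorted one. Within monocyte-like cells it was at 2466 to 2826 CPM in the Flt3 Csf1r gate against 1757 to 2325 CPM in unsorted pools, without overlap. The monocyte-like cells of the Flt3 Csf1r gate were nearly all of cluster 9 (93.6%), whereas 327 of the 531 unsorted ones were of cluster 1. In the Irf8-GFP gate the monocyte-like pools were at 1488 to 2562 CPM and overlapped the unsorted ones, and 71.5% of their cells were of cluster 1. Dendritic-like cells, 46.8% of the Irf8-GFP gate, held 2589 CPM there (pools from 2265 to 3001 CPM) against 3264 CPM over the 30 unsorted ones, which left no pool with 10 cells. Megakaryocyte-like cells, 91.7% of the CD41 gate, held 1716 and 1796 CPM there against 657 to 1382 CPM in 3 unsorted pools.

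Within neutrophil-like cells the direction of the Cebpe difference in Psmb8 was not that of the whole pools. The summed immunoproteasome was at 1005 to 1237 CPM in the 4 knockout pools and at 1397 and 1425 CPM in the control pools. Other classes differed in direction and were not tested. Monocyte-like cells were at 1781 to 2445 CPM in the knockout pools against 1544 and 1851 CPM in the control pools, and erythroid-like cells at 393 to 692 CPM against 436 and 551 CPM, both with overlap. Stem or multipotent-like cells were at 2043 CPM in the knockout against 1775 CPM, from 15 and 12 cells, and basophil or mast-like cells at 1064 against 1664 CPM, from 27 and 6 cells. Of 41 members tested on pools with at least 20 neutrophil-like cells, which left 1 control pool, assumed to vary like the others, edgeR called 0 higher and 0 lower, against 1.78% and 0.757% of all 5283 rows. With at least 10 cells and 2 control pools the counts were also 0 and 0. At an unadjusted p under 0.05 there were 4 and 5 members, and DESeq2 was not run within classes. The log2 ratio of Psmb8 was -0.31 (SE 0.23, adjusted p = 0.572) and that of Psmb9 -0.03.

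Within erythroid-like cells Psmb8 and Psmb9 were both higher in the Cebpa knockout. Psmb9 ranged from 202 to 375 CPM in 10 knockout pools against 127 to 220 CPM in 6 control pools (0.69, SE 0.16, adjusted p = 0.0137), and Psmb8 from 258 to 486 CPM against 145 to 332 CPM (0.65, SE 0.19, adjusted p = 0.0429). Both ranges overlapped. Of 40 members tested 6 were higher and 0 lower, against 3.36% and 1.78% of all 4876 rows, the others being Psmb7 (3.53), Psma5 (1.99), Psma6 (1.07) and Psmg2 (0.56). In the pools whose label and table match, 6 against 4, none was called, with Psmb9 at 0.77 (adjusted p = 0.190), Psmb8 at 0.54 (adjusted p = 0.307) and 11 members at an unadjusted p under 0.05. Different clusters held these cells: 51.0% of those of the knockout were in cluster 2, with Rhag and Cldn13 among its leading genes, and 55.2% of those of the control in cluster 5, led by Mt2 and Sphk1.

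Genes that act before and after the proteasome were counted from lists of the ubiquitin system, of MHC class I loading with its regulators, and of interferon-stimulated genes. Of 24 MHC class I genes, 14 were higher and 3 lower in the Flt3 Csf1r gate and 16 and 2 in the Irf8-GFP gate, against 25.8% and 27.5%, and 28.3% and 27.8%, of all rows. Their medians were 0.50 and 0.57 against -0.04 and 0.00 over all rows. Among these were Tap2, which carries peptides to MHC class I (1.24 in the Flt3 Csf1r gate), Tapbpl (1.61 and 1.35) and the regulators Irf8 (2.48 and 1.80) and Irf1 (1.29 and 1.65). Irf8 is also the basis of the reporter gate. The CD41 gate had 6 higher and 9 lower, against 18% and 22.5% of all rows, with Irf8 at -3.29 and the interferon-gamma receptor genes Ifngr1 and Ifngr2 at -2.87 and -3.05, although Psmb8, Psmb9 and Psmb10 were all higher there.

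Interferon-stimulated genes did not move with the immunoproteasome throughout. In the Cebpa knockout 9 of 12 tested were higher and 0 lower (median 1.31), against 9.59% and 8.58% of all rows, led by Rtp4 (2.76) and Xaf1 (2.67), while of the immunoproteasome only Psmb9 passed. In the Cebpe knockout 0 of 15 were higher and 7 lower (median -0.97), against 13.5% and 9.85% of all rows. Usp18 (-3.12) and Isg15 (-2.87) led the lower ones, while Psmb8 and Psmb9 were higher. The sample labels of Cebpe control pools 1 and 2 and of knockout pools 1 and 2 give poly(I:C) injections. Whether these pools received them is uncertain, and their part was not tested. In the Flt3 Csf1r gate 5 of 18 were higher and 4 lower, near the 25.8% and 27.5% of all rows, and in the Irf8-GFP gate 4 and 7, against 28.3% and 27.8%. Of the MHC class I genes, 9 of 24 were higher and 3 lower in the Cebpe knockout, against the same 13.5% and 9.85% of all rows, with Tap2 at 1.52 and Irf1 at 1.45. In the Cebpa knockout 5 of 21 were higher and 3 lower, against 9.59% and 8.58%, with Irf8 at -3.87.

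The ubiquitin list had calls in both directions in every comparison. Of 47 tested, 9 were higher and 10 lower in the CD41 gate, 12 and 15 in the Flt3 Csf1r gate and 6 and 15 in the Irf8-GFP gate. The shares of all rows were 18% and 22.5%, 25.8% and 27.5%, and 28.3% and 27.8%, so the first 2 gates lay near the background. In the knockouts 3 and 3 of 42 (Cebpa, 9.59% and 8.58% of all rows) and 3 and 5 of 43 (Cebpe, 13.5% and 9.85%) passed. Pomp, the chaperone that assembles the core and promotes immunoproteasome formation, was lower in the Flt3 Csf1r gate (-1.06) and higher in the Cebpa knockout (0.96). The conjugating enzyme Ube2l6 was lower in the Flt3 Csf1r and Irf8-GFP gates (-1.60 and -1.62) and in the Cebpe knockout (-1.01), and higher in the Cebpa knockout (1.05). Nfe2l2, a stress-response factor, was lower in the CD41 (-1.70), Flt3 Csf1r (-1.41) and Irf8-GFP (-1.05) gates.

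Outside the members, the rows of at least 1000 UMIs whose level followed the summed immunoproteasome most closely over the 54 pools were Fxyd5 (Spearman rho 0.78), Bin1 (0.78), Fam117a (0.76), Ninj1 (0.76), the joined row of Atn1 and Grcc10 (0.76), Vav1 (0.75), Gpsm3 (0.75), Tap2 (0.75), Zyx (0.75) and H2-DMa (0.74). These are the highest of 4932 rows, given as a description. The pools share plates, batches and groups.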

How the data were processed

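The authors deposited 1 table of UMI counts per gene row and well, not normalised, and a table of wells that gives each well's amplification pool and group. Per the submitters' processing notes, mm9 was the genome build and reads were converted with bcl2fastq (2.15.0.4). For the aligner, the name was not given in the sources used here. Wells of single cells with at least 500 UMIs were kept and their counts summed per pool. No doublet caller was run, as each well was sorted to hold 1 cell. Levels are CPM of all UMIs of a pool.

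Tests used edgeR 4.0.16 (TMM, filterByExpr, quasi-likelihood, R 4.3.3) with Benjamini-Hochberg adjustment over all rows tested and a threshold of 0.05, 1 fit for the unsorted and gated pools and 1 each for Cebpa and Cebpe. DESeq2 1.42.0 was an alternative. The scripts were tested on simulated data. Classes came from Leiden clustering (scanpy 1.11.5, Python 3.11.15, 800 variable rows without the members, 20 components, 15 neighbours, resolution 1), and a cluster was named when at least 3 fixed markers were among its top 50 rows by fold.

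The members, gene lists and tests were chosen with earlier results of these data known. The text names Psmb8, Psmb9, Psmb10 and their counterparts, Psme1, Psme2, the 5 highest and 5 lowest totals, and up to 10 called members of largest change per comparison, with up to 5 genes per pathway list, and further members where a role group is described. Those further members and the interferon-stimulated genes named were picked after their values were seen. The alternatives were other scalings, filters and cell minimums, matching pools alone, the label grouping, batches, and each pool of the CD41 gate and the Cebpe groups left out. Single pools of the other groups were not left out. Plates as the unit, leaving out Cebpa control plates and library totals alone were added after the data were seen. A gene of the MHC class I list is not reported here by name.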

Additional observations from a re-analysis of the deposited data

Results flagged for a closer look

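Within groups of 4 to 10 pools, 48 sets of levels were searched for a pool far from the others, and 2 were found, where chance gives about 1 in 20. Psmb5 in the Cebpe knockout had its lowest pool at 165.8 CPM, while the nearest of the other 3 was at 180.4 CPM and the highest at 183 CPM. The summed constitutive core in the Flt3 Csf1r gate had its lowest pool at 3408 CPM, the next at 3727 CPM and the highest at 3873 CPM. That pool is 1 of the 2 pools of plate 11, whose label and table differ.

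Wells without a cell carried UMIs of the members. They made up 1.21% of the UMIs in those wells (76 of 6279), close to the 1.15% in kept cells.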

How the results depend on the processing

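The values of named genes, and immunoproteasome levels within cell classes, were compared with the main setting under the alternatives. Of these, 2017 counted as unchanged, 210 lost the threshold, 17 gained it and 43 turned. A value turned when its sign changed and either fit passed the threshold. Values that passed in neither fit counted as unchanged whatever their sign. No paired analysis was possible because the labels carry no replicate numbers and the pools are numbered in accession order only. The cause of each change below was not tested, except that fewer pools enter some fits by construction. Counts below without a share of all rows cannot tell a change in the members from a change in all calls.

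With library totals alone the median log2 ratio of all rows was -0.14 instead of -0.01 in the Cebpe knockout and 0.11 instead of 0.01 between the Irf8-GFP and Flt3 Csf1r gates. Then 1 member was called lower in the Cebpa knockout. The summed regulatory particle stood at -0.16 (CD41 gate), -0.37 (Flt3 Csf1r gate), -0.15 (Irf8-GFP against Flt3 Csf1r gate, core -0.021) and -0.30 (Cebpe knockout, core -0.34, PA28 -0.34). DESeq2 called 4 members lower in the Cebpe knockout. Without joined rows the regulatory particle in the CD41 gate turned to 0.014.

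In the matching pools alone 8 members were lower in the Flt3 Csf1r gate, 3 were higher and 13 lower in the Irf8-GFP gate against it, 1 was higher in the Cebpa knockout and 0 in its erythroid-like cells. There the summed regulatory particle was -0.20 in the Flt3 Csf1r gate, the core -0.053 in the Cebpa knockout, and B2m -0.53 in the Flt3 Csf1r gate.

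Within batch 23 the Cebpa knockout had 0 members lower, a core of 0.24 and Psmd13 at 0.043. Within batch 29 it had 1 member higher and a core of -0.053. Within batch 25, 13 members were lower in the Irf8-GFP gate than in the Flt3 Csf1r gate, with Psma1 at 0.20, and with batch as a term Psmc6 was 0.70 and Psma1 0.17.

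With plates as the unit, 1 member was lower in the CD41 gate, 4 were higher in the Irf8-GFP gate, 1 was higher in it than in the Flt3 Csf1r gate, 1 was higher and 0 lower in the Cebpa knockout, and 1 was higher and 5 lower in the Cebpe knockout. Without control plates 14, 26 and 27, 4, 7 and 0 members were lower in the Cebpa knockout.

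Without 1 of its pools the CD41 gate had 5 to 6 members higher and 1 to 2 lower, and sums of 0.14 to 0.21 (core), -0.07 to -0.02 (regulatory particle), 0.79 to 0.83 (immunoproteasome) and 0.55 to 0.61 (PA28). Without 1 pool the Cebpe comparison had 0 to 3 higher and 4 to 13 lower, and sums of -0.23 to -0.19, -0.20 to -0.14, 0.46 to 0.58 and -0.27 to -0.14 in the same order.

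Grouping by the sample labels, which the targeted genes contradict, changed most. In the Flt3 Csf1r gate 8 members were higher and 7 lower, the immunoproteasome stood at 0.80 and PA28 at 0.70, and Psmb6 was -0.023, Psma1 -0.056 and Pomp 0.12. The regulatory particle of the Irf8-GFP gate was -0.42. Between these gates 0 members were higher and 0 lower, with the immunoproteasome at 0.33 and PA28 at -0.018. Turned there were Psma7 (0.0051), Psmb5 (0.056), Psmb7 (-0.52), Psmb8 (0.31), Psme4 (-0.24), Psma5 (-0.41), Psma6 (-0.22), Psmc3ip (0.14), Pomp (-0.40), Ngly1 (-0.25), Ube3c (-0.18), Ubqln1 (-0.19), Erap1 (-0.32), Tap2 (0.32) and Irf8 (0.42). In the Cebpa knockout 0 were higher and 1 lower, with Psmb7 at -0.52 and Irf8 at 0.23. In the Cebpe knockout 6 were higher and 0 lower, with the core at 0.064, the regulatory particle at 0.28, the immunoproteasome at -0.13 and PA28 at 0.30. Turned there were Psmb6 (0.48), Psmb8 (-0.35), Psmb9 (-0.066), Psmd5 (1.26), Psmg1 (0.61), Psmd12 (0.14), Psmd6 (0.39), Psmf1 (0.95), Ngly1 (1.09), Ube2l6 (1.99), Cul1 (0.21), Txnl1 (1.22), Nfe2l1 (-0.10), B2m (0.57), Irf7 (2.24), Tap2 (-0.77), Irf1 (-0.74) and Ifnar1 (-0.65).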
